A study of Homo sapiens with 8 samples.

Results

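The respiratory chain subunits described here were 73 genes of the 59370 gene names in the deposited tables. They were chosen by symbol, with earlier results of these data known. The choice took the NDUFA, NDUFB, NDUFC, NDUFS and NDUFV genes with a number, SDHA to SDHD and the subunits of complex III. It also took the main nuclear subunits of cytochrome c oxidase and the 13 protein genes of mitochondrial DNA. Of the 73 genes, 60 lie in the nucleus and 13 in mitochondrial DNA. The nuclear genes divide into 36 of complex I, 4 of complex II, 9 of complex III and 11 of complex IV, where NDUFA4 was placed since its product belongs to that enzyme. The mitochondrial genes divide into 7 of complex I, 1 of complex III, 3 of complex IV and 2 of the ATP synthase. No member name was repeated in the tables, and all 73 reached the level required for testing.

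The respiratory chain passes electrons from NADH and succinate through complexes I and II to ubiquinone, then through complex III and cytochrome c to complex IV, which reduces oxygen. Complexes I, III and IV pump protons across the inner mitochondrial membrane, and the ATP synthase uses the gradient. Complexes I, III and IV are built from subunits of both genomes, so nuclear messages translated in the cytosol and mitochondrial messages cut from long transcripts of both strands of a circular genome have to be supplied together. Complex II is wholly nuclear-encoded. Fibroblasts in culture rely on glycolysis as well as on this chain.

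The libraries came from BJ cells, an established line of human skin fibroblasts, grown in DMEM with serum, and each of 4 groups held 2 libraries, numbered here replicate 1 and replicate 2. PURPL, a long noncoding RNA induced by the tumour suppressor p53, was overexpressed (OE-PURPL) beside a PCDNA control, or targeted with an antisense oligonucleotide (ASO-PURPL) beside the control ASO-NC. All groups share the 1 cell line, and the oligonucleotide sequence, the time of treatment and whether overexpression was transient were not given in the sources used here, nor whether replicates were separate cultures. The p-values below therefore rest on differences between these libraries alone, which may be technical. The series' design text names a mouse line and other knockdowns that no sample label holds, and it was not used.

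PURPL stood at 5.42 and 5.73 FPKM (fragments scaled by transcript length and library size) in the PCDNA libraries and at 153 and 238 FPKM in OE-PURPL. It stood at 16.2 and 9.74 FPKM in ASO-NC and at 6.31 and 4.24 FPKM in ASO-PURPL, in the order of replicates 1 and 2 that holds for all pairs of values in this text. PURPL was thus higher in both overexpression libraries and lower in both knockdown libraries than in the control of the same replicate. All 9 fibroblast markers lay above 1 FPKM on average, from 7.63 FPKM to 2110 FPKM (VIM), while 0 of 4 keratinocyte and 0 of 2 endothelial markers did. The keratinocyte marker KRT14 was nevertheless higher in both OE-PURPL libraries, at 1.73 and 2.20 FPKM, than in PCDNA, at 0.60 and 0.67, while KRT1 and KRT5 were listed at 0.01 or 0 in every library. The endothelial marker PECAM1 stood at 1.48 FPKM in ASO-NC replicate 1. The part of either marker in the results was not tested. Among immune, melanocyte and muscle markers, 1 of 3 each reached it, CD68 at 198, PMEL at 2.18 and MYH3 at 1.46 FPKM on average. CD68 ran from 284 to 354 FPKM in the plasmid libraries and from 58.4 to 78.5 in the oligonucleotide libraries, and the defining immune gene PTPRC, the melanocyte gene TYR and the muscle gene CKM lay at 0.399 FPKM or below in every library.

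The subunit messages differed in level by genome first and by complex second. The median member level, taken over the mean of the 8 libraries, was 71.99 FPKM in nuclear complex I, 41.8 FPKM in complex II, 68.9 FPKM in complex III, 160 FPKM in complex IV and 2508 FPKM among the 13 mitochondrial genes. FPKM are scaled by length, so that levels of different genes can be set side by side, though less surely for short genes. MT-ATP8, of 207 bases, stood at 1.14 to 3.48 times MT-ATP6 of the same message, by library. In complex I the 29 accessory subunits had a median of 84.6 FPKM and the 7 nuclear core subunits, which carry the flavin and the iron-sulphur clusters, one of 59.4 FPKM. The members of each complex spread widely, from NDUFV3 at 14.6 FPKM to NDUFC2 at 409.8 FPKM in complex I, from SDHD and SDHA, both at 37.4 FPKM, to SDHC at 81.6 FPKM in complex II, from UQCRFS1 at 19.8 FPKM to UQCRH at 194 FPKM in complex III, and from COX7B at 27.0 FPKM to COX8A at 333 FPKM in complex IV. No nuclear member reached the lowest mitochondrial one, MT-ND5 at 1083 FPKM, in these means, and MT-ATP8 at 5012 FPKM had the highest mean of all. MT-CO1 lay above MT-ATP8 in replicate 1 of PCDNA and, narrowly, of OE-PURPL, and in replicate 2 of both oligonucleotide groups. In the other libraries MT-ATP8 lay above MT-CO1, up to 8671 FPKM in ASO-PURPL replicate 1.

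**Figure D1:**
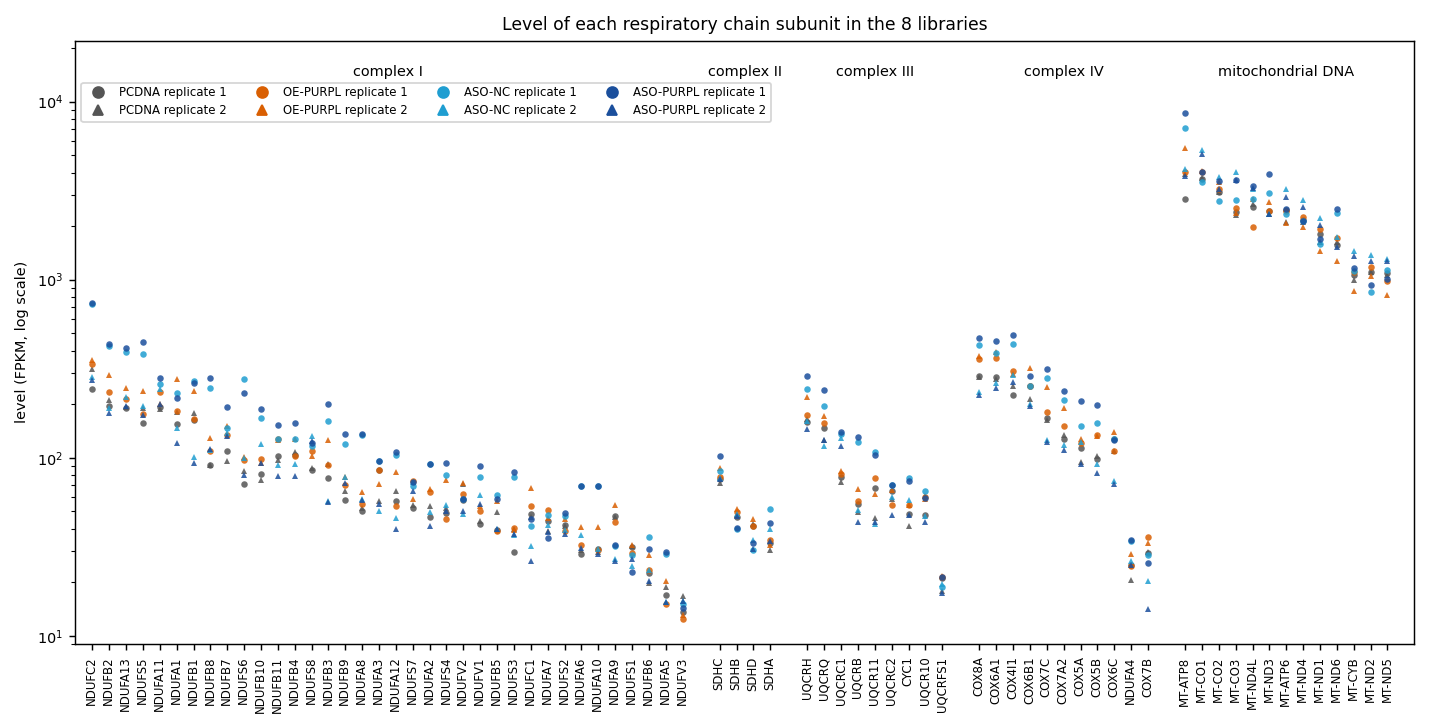
Level of each of the 73 subunits (FPKM, log scale) in the 8 libraries, ordered within each complex by the mean over libraries, with colour for the group and circle or triangle for replicate 1 or 2. The mitochondrially encoded members lie above all nuclear ones, and the circles of ASO-NC and ASO-PURPL lie above the triangles for most nuclear members.

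The 60 nuclear members summed to 5532 and 5629 FPKM in PCDNA (mean 5581 ± 68.6, SD, n = 2) and to 6356 and 7207 FPKM in OE-PURPL (6781 ± 602, SD, n = 2). They summed to 9174 and 5553 FPKM in ASO-NC (7363 ± 2560, SD, n = 2) and to 9911 and 5089 FPKM in ASO-PURPL (7499.98 ± 3409, SD, n = 2). Both OE-PURPL libraries thus lay above both PCDNA libraries, whereas in the oligonucleotide groups the replicates of a group lay much farther apart than the treated library from its control. The median member was 1.48 times higher in ASO-NC replicate 1 than in ASO-NC replicate 2, with a range from 0.827 (SDHB) to 2.79 (NDUFB3), while the median of all genes tested was 1.09 times higher. Replicates 1 and 2 were deposited in separate tables, so whether cells or table set that gap cannot be told apart. Between the PCDNA replicates the median nuclear member had a ratio of 0.983. For that reason each treated library was compared with the control of its own table only.

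Of the nuclear members 52 of 60 were higher in replicate 1 than in replicate 2 of both oligonucleotide groups, and of the mitochondrial members 3 of 13 were (MT-ND3, MT-ND6 and MT-ATP8), while 8 of 13 were lower in both. The 13 mitochondrial members summed to 28270.2 and 28692 FPKM in PCDNA, 29788 and 30610.3 FPKM in OE-PURPL, 33730.4 and 36964 FPKM in ASO-NC and 39101 and 34341 FPKM in ASO-PURPL. Without MT-ATP8, the member of highest mean, the sums were 25448 and 24745 FPKM in PCDNA and 25761 and 25082 FPKM in OE-PURPL. PCDNA and OE-PURPL then overlapped. In ASO-NC the sums without it were 26608 and 32786 FPKM, and in ASO-PURPL 30430 and 30540 FPKM. The share of all 13 members in the summed FPKM of a library ran from 5.24% to 5.36% in the PCDNA and OE-PURPL libraries and from 6.04% to 7.49% in the oligonucleotide libraries. The ratio of the mitochondrial to the nuclear sum was 5.11 and 5.10 in PCDNA, 4.69 and 4.25 in OE-PURPL, 3.68 and 6.66 in ASO-NC and 3.95 and 6.75 in ASO-PURPL. It was lower in both OE-PURPL libraries than in both PCDNA libraries, and in the oligonucleotide groups it followed the replicate and not the treatment. In bulk RNA a change in the number of cells of a kind and a change in RNA per cell cannot be told apart.

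**Figure D2:**
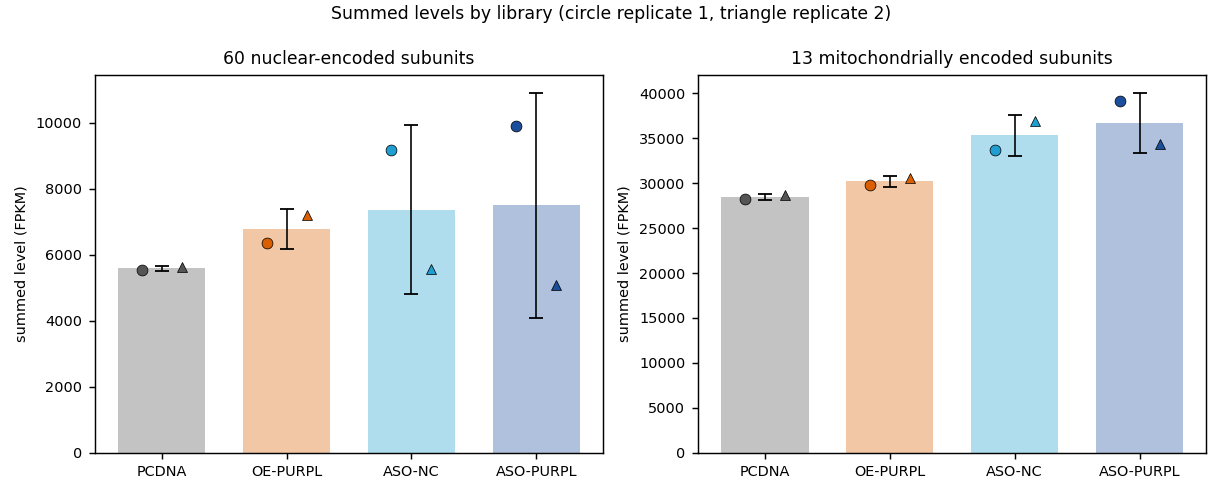
Summed level (FPKM) of the 60 nuclear-encoded subunits and of the 13 mitochondrially encoded subunits in each group, with bars for the mean of 2 libraries, error bars for the SD, circles for replicate 1 and triangles for replicate 2. The nuclear sum of both OE-PURPL libraries lies above both PCDNA libraries, and the nuclear sums of the oligonucleotide groups split by replicate. The mitochondrial sum is lower in replicate 1 than in replicate 2 in ASO-NC and higher in ASO-PURPL.

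The controls themselves could be compared in 1 table, that of replicate 2. There the nuclear members had a median log2 ratio of PCDNA over ASO-NC of 0.07, with 32 of 60 higher in PCDNA, beside a median of 0.05 over all genes tested. All 13 mitochondrial members were lower in PCDNA than in ASO-NC of that table, with a median log2 ratio of -0.32. The largest difference among them was that of MT-CO3, a subunit of the catalytic core of complex IV, with a log2 ratio of -0.80. With 1 library on each side this has no replicate check, and across the separate replicate 1 tables the median was -0.06 with 6 of 13 higher in PCDNA.

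Overexpression of PURPL was asked first, since it addresses whether more of this RNA goes with a different supply of respiratory chain messages. The nuclear members were on balance slightly higher, and the mitochondrial ones were not. The median log2 ratio of OE-PURPL over PCDNA was 0.24 over the 60 nuclear members, 0.13 in pair 1 and 0.31 in pair 2, beside 0.00, -0.01 and 0.02 over all 14977 genes tested. Of the 60, 45 were higher in pair 1, beside 46.7% of all genes tested, and 57 in pair 2, beside 53.3%. Higher in both pairs were 43 of 60, beside 32.6% of all genes tested, and 1 was lower in both, beside 31.0%. Both OE-PURPL libraries lay above both PCDNA libraries in 36 of 60, beside 23.5% of all genes tested, and below them in 1, beside 23.4%.

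No single member passed the test. By limma with Benjamini-Hochberg adjustment over all genes, 0 of 73 members were called higher, beside 0.0267% of all genes tested, and 0 were called lower, beside 0.0%, and the lowest adjusted p among them was 0.324. At an unadjusted p under 0.05, 20 members lay on the higher side, beside 8.25% of all genes tested, and 0 on the lower side, beside 5.51%. These 20 were 12 nuclear members of complex I, 2 of complex III, 5 of complex IV and MT-ATP8. Across the 60 nuclear members the log2 ratios of pair 1 and pair 2 had a Pearson r of 0.07, a description over genes that share their libraries, so that the group was higher in both pairs but a member high in the first was not on that account high in the second.

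The size of the group's shift moved with the handling of the tables. With quantile normalization of the 8 libraries and no replicate block the nuclear median was 0.13, and with a trend of each ratio on transcript length and GC content removed it was 0.16. The nuclear members were short, with a median transcript length of 702.5 bases beside 1688 bases over all genes tested. Across all annotated genes tested the ratios of pair 1 had a Spearman rho of 0.48 with GC content and of -0.24 with length, and those of pair 2 had 0.37 and -0.28. Within the 60 nuclear members the ratio of pair 1 had a Spearman rho of 0.54 with GC content and of -0.14 with length. That of pair 2 had a Spearman rho of -0.013 with GC content and of -0.37 with length. The part of length and base composition in the group's shift was not tested beyond that fit.

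**Figure D3:**
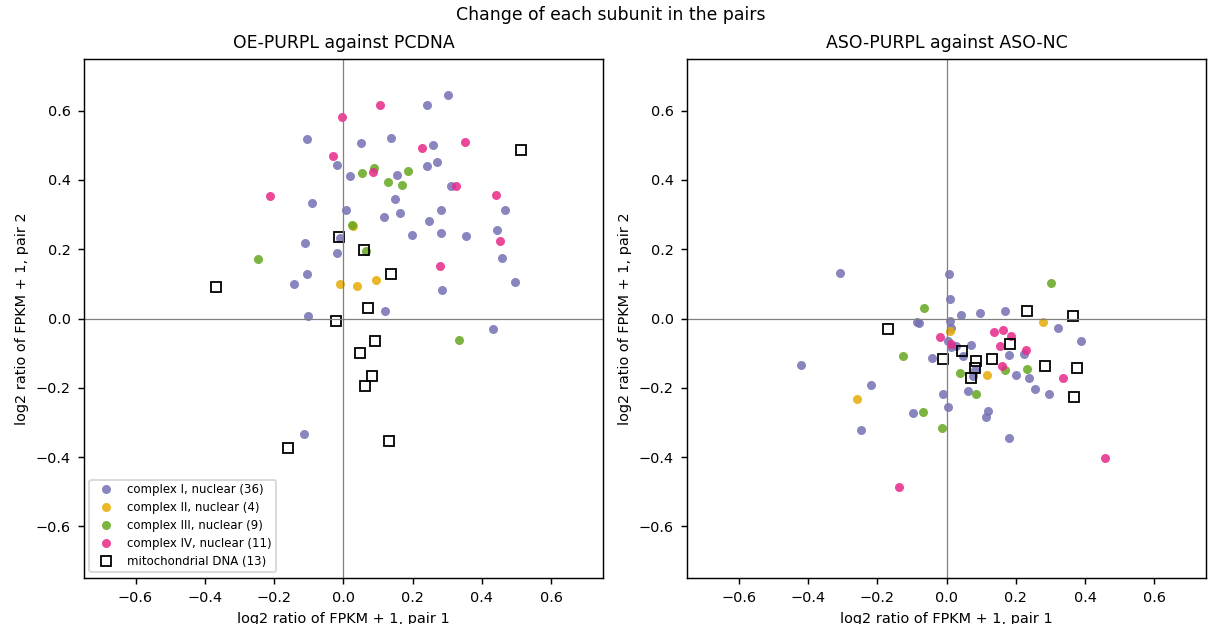
Log2 ratio of FPKM + 1 of each of the 73 subunits in pair 1 (horizontal axis) and pair 2 (vertical axis), for OE-PURPL against PCDNA on the left and ASO-PURPL against ASO-NC on the right, with colour for the complex and open squares for mitochondrial DNA. On the left 43 of 60 nuclear members lie at the upper right, and on the right 38 of 60 lie at the lower right.

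Complex I had a median log2 ratio of 0.24 after overexpression, with 25 of 36 nuclear members higher in both pairs and 1 lower in both. NDUFB7, an accessory subunit of the membrane arm, had the largest mean ratio of the complex. It stood at 109 and 96.3 FPKM in PCDNA, 135 and 151 in OE-PURPL, 148 and 138 in ASO-NC and 194 and 132 in ASO-PURPL. Both OE-PURPL libraries exceeded both PCDNA libraries, with log2 ratios of 0.30 and 0.65 and a mean of 0.47 ± 0.15 (adjusted p = 0.326), where ± gives the SE of the limma fit over 2 pairs here and below. NDUFA1, a small accessory subunit anchored in the membrane arm, stood at 154 and 181 FPKM in PCDNA, 182 and 278 in OE-PURPL, 231 and 146 in ASO-NC and 216 and 121 in ASO-PURPL. Its ratios were 0.24 and 0.62, with a mean of 0.43 ± 0.12 (adjusted p = 0.324), and its OE-PURPL libraries too lay above both controls, though OE-PURPL replicate 1 exceeded PCDNA replicate 2 only narrowly.

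NDUFS6, a zinc-binding accessory subunit of the peripheral arm, stood at 71.4 and 84.3 FPKM in PCDNA, 97.4 and 101 in OE-PURPL, 276 and 100.1 in ASO-NC and 232 and 80.0 in ASO-PURPL. It was higher in both OE-PURPL libraries than in both PCDNA libraries, with ratios of 0.44 and 0.26 and a mean of 0.35 ± 0.09 (adjusted p = 0.324). Among the core subunits, NDUFV1, which binds NADH and the flavin, stood at 42.4 and 44.1 FPKM in PCDNA, 50.5 and 53.8 in OE-PURPL, 78.3 and 61.4 in ASO-NC and 90.2 and 54.8 in ASO-PURPL. Its ratios of 0.25 and 0.28 gave a mean of 0.26 ± 0.11 (adjusted p = 0.384) with no overlap of OE-PURPL and PCDNA. NDUFS1, the largest core subunit and a carrier of iron-sulphur clusters, stood at 31.4 and 32.0 FPKM in PCDNA, 29.2 and 32.1 in OE-PURPL, 28.4 and 24.7 in ASO-NC and 22.8 and 27.1 in ASO-PURPL. The overexpression and control libraries of NDUFS1 overlapped, with ratios of -0.10 and 0.01 and a mean of -0.05 ± 0.13 (adjusted p = 0.897).

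NDUFC2, an accessory subunit of the membrane arm and the most abundant nuclear member on average, stood at 245 and 314 FPKM in PCDNA, 337 and 355 in OE-PURPL, 733 and 286 in ASO-NC and 736 and 273 in ASO-PURPL. Its ratios were 0.46 and 0.18, with a mean of 0.32 ± 0.11 (adjusted p = 0.337), and OE-PURPL lay above PCDNA in all 4 libraries. COX8A and COX6A1 lay above NDUFC2 in PCDNA replicate 1 and in both OE-PURPL libraries. Ranks of abundance here and below are by the mean over the 8 libraries. NDUFV3, a small accessory subunit beside the NADH-binding part and the least abundant nuclear member, stood at 13.5 and 16.7 FPKM in PCDNA, 12.4 and 13.05 in OE-PURPL, 15.1 and 15.8 in ASO-NC and 14.3 and 15.6 in ASO-PURPL. It was the 1 nuclear member lower in both pairs, with ratios of -0.11 and -0.33 and a mean of -0.22 ± 0.11 (adjusted p = 0.418), and both OE-PURPL libraries lay below both controls. NDUFA7, an accessory subunit described again with the knockdown, stood at 44.0 and 38.7 FPKM in PCDNA, 50.6 and 45.8 in OE-PURPL, 47.9 and 42.0 in ASO-NC and 35.5 and 38.2 in ASO-PURPL, with ratios of 0.20 and 0.24 and a mean of 0.22 ± 0.10 (adjusted p = 0.408) after overexpression.

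Complex II, which holds the succinate dehydrogenase of the citric acid cycle, had the smallest nuclear shift, a median of 0.08 with 3 of 4 members higher in both pairs. SDHC, a membrane anchor, stood at 76.2 and 72.5 FPKM in PCDNA, 77.7 and 87.5 in OE-PURPL, 83.9 and 76.9 in ASO-NC and 102 and 76.3 in ASO-PURPL, with overexpression ratios of 0.03 and 0.27 and a mean of 0.15 ± 0.11 (adjusted p = 0.585). SDHB, the iron-sulphur subunit, stood at 46.5 and 47.6 FPKM in PCDNA, 49.6 and 51.5 in OE-PURPL, 39.7 and 48.1 in ASO-NC and 40.0 and 46.9 in ASO-PURPL. Its ratios of 0.09 and 0.11 were alike in both pairs and gave a mean of 0.10 ± 0.08 (adjusted p = 0.6), with both OE-PURPL libraries above both controls. SDHA, the flavin-binding catalytic subunit, stood at 33.3 and 30.4 FPKM in PCDNA, 34.3 and 32.5 in OE-PURPL, 51.6 and 39.9 in ASO-NC and 43.0 and 33.8 in ASO-PURPL, and its ratios of 0.04 and 0.09 gave a mean of 0.07 ± 0.08 (adjusted p = 0.75).

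Complex III had a median of 0.24, with 7 of 9 members higher in both pairs and 0 lower in both. UQCR11, a small subunit, stood at 67.8 and 46.0 FPKM in PCDNA, 77.2 and 62.2 in OE-PURPL, 108 and 42.6 in ASO-NC and 103 and 43.5 in ASO-PURPL. Its libraries overlapped across the groups, since the PCDNA replicates lay far apart, yet within each pair OE-PURPL was higher, with ratios of 0.19 and 0.43 and a mean of 0.31 ± 0.10 (adjusted p = 0.33). CYC1, the cytochrome c1 that hands electrons to cytochrome c, stood at 48.4 and 41.3 FPKM in PCDNA, 54.5 and 54.2 in OE-PURPL, 77.2 and 58.0 in ASO-NC and 73.6 and 47.9 in ASO-PURPL, with ratios of 0.17 and 0.39 and a mean of 0.28 ± 0.10 (adjusted p = 0.356). UQCRFS1, the Rieske iron-sulphur protein, stood at 21.0 and 17.8 FPKM in PCDNA, 21.4 and 21.7 in OE-PURPL, 18.8 and 19.4 in ASO-NC and 21.3 and 17.4 in ASO-PURPL, and its ratios of 0.03 and 0.27 gave 0.15 ± 0.13 (adjusted p = 0.621). In both CYC1 and UQCRFS1 the OE-PURPL libraries lay above both controls. UQCRH, the hinge protein at the cytochrome c1 site, stood at 158 and 166 FPKM in PCDNA, 173 and 218 in OE-PURPL, 244 and 159.8 in ASO-NC and 287 and 144 in ASO-PURPL with ratios of 0.13 and 0.39 and a mean of 0.26 ± 0.13 (adjusted p = 0.424). UQCRQ, a small subunit near cytochrome b, stood at 147 and 126 FPKM in PCDNA, 157 and 171 in OE-PURPL, 195 and 117 in ASO-NC and 240.3 and 126 in ASO-PURPL with ratios of 0.09 and 0.43 and a mean of 0.26 ± 0.12 (adjusted p = 0.399).

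Complex IV had the largest median of the nuclear groups, 0.34, with 11 of 11 members higher in pair 2 and 8 of 11 in pair 1. COX6A1, the isoform of subunit VIa outside muscle, stood at 285 and 277 FPKM in PCDNA, 363 and 394 in OE-PURPL, 386 and 262 in ASO-NC and 452 and 246 in ASO-PURPL. All OE-PURPL values lay above all PCDNA values, with ratios of 0.35 and 0.51 and a mean of 0.43 ± 0.12 (adjusted p = 0.324). COX5B, a zinc-binding subunit on the matrix side, stood at 98.2 and 103 FPKM in PCDNA, 133 and 132 in OE-PURPL, 156 and 92.3 in ASO-NC and 197 and 81.9 in ASO-PURPL, with ratios of 0.44 and 0.36 and a mean of 0.40 ± 0.14 (adjusted p = 0.338). COX8A, the smallest subunit, stood at 287 and 286 FPKM in PCDNA, 360.5 and 373 in OE-PURPL, 429 and 233 in ASO-NC and 472 and 226 in ASO-PURPL, with ratios of 0.33 and 0.38 and a mean of 0.35 ± 0.10 (adjusted p = 0.324). In both COX5B and COX8A the groups did not overlap.

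COX4I1, the main isoform of the subunit that senses ATP, stood at 224 and 254 FPKM in PCDNA, 306 and 297 in OE-PURPL, 435 and 292 in ASO-NC and 486 and 266 in ASO-PURPL, with overexpression ratios of 0.45 and 0.22 and a mean of 0.34 ± 0.12 (adjusted p = 0.342). COX7B, a small membrane subunit and the least abundant of complex IV, stood at 29.2 and 29.7 FPKM in PCDNA, 35.7 and 33.1 in OE-PURPL, 28.2 and 20.2 in ASO-NC and 25.6 and 14.2 in ASO-PURPL, with ratios of 0.28 and 0.15 and a mean of 0.22 ± 0.12 (adjusted p = 0.46). COX6C, another small membrane subunit, was among the 14 nuclear members that were lower in pair 1 and higher in pair 2, beside 20.4% of all genes tested. It stood at 127 and 109 FPKM in PCDNA, 109 and 139 in OE-PURPL, 127 and 74.2 in ASO-NC and 126 and 71.5 in ASO-PURPL, with ratios of -0.21 and 0.35 and a mean of 0.07 ± 0.15 (adjusted p = 0.86), and its OE-PURPL and PCDNA libraries overlapped. The mixed direction was found in each nuclear complex, among others in NDUFS4, SDHD, UQCRC2 and COX6B1, and 2 nuclear members, NDUFS3 and UQCR10, were higher in pair 1 and lower in pair 2, beside 13.7%.

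The promoters of the nuclear members were read for the letters of factors known to act on respiratory chain genes. RefSeq promoters (GRCh38.p14) were found for 50 of the 60 nuclear members, and the 250 bases before the first listed start were searched on both strands. The core of the NRF1 site, GCATGCG, lay in 8 of 50 (16%), beside 5.63% of the promoters of tested genes. The ETS core CCGGAAG, read by GABP, lay in 14 (28%), beside 16.1%, and the SP1 core GGGCGG in 30 (60%), beside 67.1%. The core of the site of oestrogen-related receptors, AAGGTCA, lay in 4 (8%), beside 2.24%, the cyclic AMP response core TGACGTC in 4 (8%), beside 5.22%, the YY1 core AAGATGG in 2 (4%), beside 3.39%, and the CCAAT box in 14 (28%), beside 35.2%. The ETS and SP1 letters can overlap in GC-rich runs, and a match of letters is no measure of binding.

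The 150 bases nearest the start are shown for the 6 members with a promoter whose overexpression ratios were largest and for NDUFV3, which was lower in both pairs, with all matches to the 7 motifs in capitals on either strand.
NDUFB7 (chr19:14572067-14572216, minus strand): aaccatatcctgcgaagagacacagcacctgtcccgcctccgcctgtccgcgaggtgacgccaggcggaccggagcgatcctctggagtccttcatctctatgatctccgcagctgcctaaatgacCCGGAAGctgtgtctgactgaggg
COX6A1 (chr12:120437963-120438112, plus strand): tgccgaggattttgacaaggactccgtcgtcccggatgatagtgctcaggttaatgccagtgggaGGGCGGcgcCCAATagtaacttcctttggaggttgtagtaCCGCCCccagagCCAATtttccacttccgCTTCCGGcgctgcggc
NDUFA1 (chrX:119871682-119871831, plus strand): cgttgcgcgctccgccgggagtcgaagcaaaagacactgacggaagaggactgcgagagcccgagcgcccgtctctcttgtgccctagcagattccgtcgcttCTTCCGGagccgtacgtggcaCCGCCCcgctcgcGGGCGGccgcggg
COX5B (chr2:97645912-97646061, plus strand): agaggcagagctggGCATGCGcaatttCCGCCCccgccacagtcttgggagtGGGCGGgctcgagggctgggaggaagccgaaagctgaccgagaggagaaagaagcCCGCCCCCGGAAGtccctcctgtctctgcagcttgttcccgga
NDUFA2 (chr5:140647631-140647780, minus strand): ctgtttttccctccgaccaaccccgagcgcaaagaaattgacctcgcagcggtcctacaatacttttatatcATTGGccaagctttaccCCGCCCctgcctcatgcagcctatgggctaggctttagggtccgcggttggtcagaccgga
NDUFB8 (chr10:100529924-100530073, minus strand): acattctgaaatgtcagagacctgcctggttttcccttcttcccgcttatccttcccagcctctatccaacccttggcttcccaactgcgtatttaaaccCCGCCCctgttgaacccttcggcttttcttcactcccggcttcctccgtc
NDUFV3 (chr21:42893159-42893308, plus strand): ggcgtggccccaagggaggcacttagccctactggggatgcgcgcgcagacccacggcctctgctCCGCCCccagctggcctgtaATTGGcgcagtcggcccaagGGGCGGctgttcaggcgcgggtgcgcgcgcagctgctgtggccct
The ETS core lay in 4 of the 6 windows, those of NDUFB7, COX6A1, NDUFA1 and COX5B, beside 13 of the windows of all 50 members, and the NRF1 core lay in COX5B. NDUFA2, an accessory subunit of the peripheral arm, and NDUFB8, one of the membrane arm, held the SP1 core and no ETS core, and their overexpression ratios had means of 0.39 ± 0.10 (adjusted p = 0.324) and 0.38 ± 0.10 (adjusted p = 0.324). NDUFV3 held the SP1 core and a CCAAT box. Over all 50 promoters the median overexpression ratio was 0.29 with the NRF1 core and 0.25 without it, and 0.28 with the ETS core and 0.22 without it. With the SP1 core the median was 0.30 and without it 0.20, and with the oestrogen-related receptor core 0.11 against 0.26. These are descriptions of small groups of genes, of which the 6 were picked by the same ratios, and were not tested. The part of these factors in the overexpression ratios was not tested either.

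The mitochondrially encoded members gave no common direction after overexpression. Their median log2 ratio was -0.02, with 0.06 in pair 1 and -0.01 in pair 2. Of the 13, 7 were opposite in the pairs. Higher in both pairs were 4, beside 32.6% of all genes tested, and lower in both were 2, beside 31.0%. The 4 were the complex IV subunits MT-CO1, MT-CO2 and MT-CO3 and the ATP synthase subunit MT-ATP8, and the 2 were MT-ND5 and MT-ATP6. MT-CO1, the catalytic subunit that holds haem and copper, stood at 3674 and 3719.6 FPKM in PCDNA, 4039 and 4066 in OE-PURPL, 3552 and 5337 in ASO-NC and 4033 and 5075 in ASO-PURPL, with ratios of 0.14 and 0.13 and a mean of 0.13 ± 0.15 (adjusted p = 0.719). The median ratio of complex IV was 0.13 over its 3 mitochondrial and 0.34 over its 11 nuclear subunits, of which none passed the test. With quantile normalization and no replicate block the mean ratio of MT-CO1 was -0.04.

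MT-ND5, a proton-pumping subunit of complex I, was the mitochondrial member with the lowest ratio. It stood at 1093 and 1058 FPKM in PCDNA, 977 and 816 in OE-PURPL, 1139 and 1299 in ASO-NC and 1013 and 1273 in ASO-PURPL, with both OE-PURPL libraries below both PCDNA libraries, ratios of -0.16 and -0.37 and a mean of -0.27 ± 0.12 (adjusted p = 0.394). MT-ND6, the 1 member encoded on the minus strand of the reference (chrM:14149-14673), stood at 1558 and 1625 FPKM in PCDNA, 1707 and 1272 in OE-PURPL, 2375 and 1727 in ASO-NC and 2494 and 1532 in ASO-PURPL. Its ratios had opposite signs, 0.13 and -0.35, with a mean of -0.11 ± 0.16 (adjusted p = 0.79). The use of strand in counting was not given in the sources used here, so reads of MT-ND6 and of the opposite strand may not be separated.

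MT-ND1, which lies at the ubiquinone site of complex I, stood at 1809 and 1626 FPKM in PCDNA, 1917 and 1449 in OE-PURPL, 1588 and 2213 in ASO-NC and 1683 and 2034 in ASO-PURPL, with ratios of 0.08 and -0.17 and a mean of -0.04 ± 0.13 (adjusted p = 0.918). MT-CYB, the cytochrome b of complex III, stood at 1058 and 990.3 FPKM in PCDNA, 1104 and 865 in OE-PURPL, 1122 and 1454 in ASO-NC and 1157 and 1362 in ASO-PURPL, with ratios of 0.06 and -0.19 and a mean of -0.07 ± 0.12 (adjusted p = 0.836). For both genes the groups overlapped and the pairs differed in sign. The short complex I genes were also uneven between pairs. MT-ND3 stood at 2445 and 2327 FPKM in PCDNA, 2421 and 2741 in OE-PURPL, 3061 and 2329 in ASO-NC and 3938 and 2343 in ASO-PURPL, with ratios of -0.01 and 0.24 and a mean of 0.11 ± 0.16 (adjusted p = 0.779). MT-ND4L, which shares a transcript and 7 bases with MT-ND4, stood at 2563 and 2673 FPKM in PCDNA, 1986 and 2844 in OE-PURPL, 2842 and 3246 in ASO-NC and 3339 and 3294 in ASO-PURPL, with ratios of -0.37 and 0.09 and a mean of -0.14 ± 0.17 (adjusted p = 0.737).

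MT-ATP8 and its neighbour MT-ATP6 are read from 1 bicistronic message, and the difference between their ratios was not tested. MT-ATP8 stood at 2822 and 3947 FPKM in PCDNA, 4027 and 5528 in OE-PURPL, 7122 and 4178 in ASO-NC and 8671 and 3802 in ASO-PURPL, while MT-ATP6 stood at 2479 and 2097 FPKM in PCDNA, 2441 and 2084 in OE-PURPL, 2352 and 3212 in ASO-NC and 2489 and 2911 in ASO-PURPL. The overexpression ratios of MT-ATP8 were 0.51 and 0.49, with a mean of 0.50 ± 0.17 (adjusted p = 0.336), the largest of all 73 members, and those of MT-ATP6 were -0.02 and -0.01, with a mean of -0.02 ± 0.13 (adjusted p = 0.979). The reading frames overlap by 46 bases (chrM:8527-8572), which are 22.2% of MT-ATP8 and 6.76% of MT-ATP6 and are shown in capitals in the MT-ATP8 gene (GENCODE 29, GRCh38).
MT-ATP8 (chrM:8366-8572, plus strand): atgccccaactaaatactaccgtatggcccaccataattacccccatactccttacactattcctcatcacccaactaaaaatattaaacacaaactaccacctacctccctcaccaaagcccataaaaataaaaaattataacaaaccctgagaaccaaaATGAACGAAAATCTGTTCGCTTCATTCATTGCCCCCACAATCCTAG
The ratio of the 2 levels, MT-ATP8 over MT-ATP6, was 1.14 and 1.88 in PCDNA, 1.65 and 2.65 in OE-PURPL, 3.03 and 1.30 in ASO-NC and 3.48 and 1.31 in ASO-PURPL. It thus ranged from 1.14 to 3.48 for the same message, and in the oligonucleotide groups it followed the replicate. MT-ATP8, at 207 bases, is the shortest mitochondrial member, and fragment lengths and the handling of overlaps were not given in the sources used here. Across the 13 members the ratio of overexpression pair 2 had a Pearson r of -0.64 with log2 length and that of knockdown pair 1 one of -0.62, while the other pairs had -0.18 and -0.08.

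**Figure D4:**
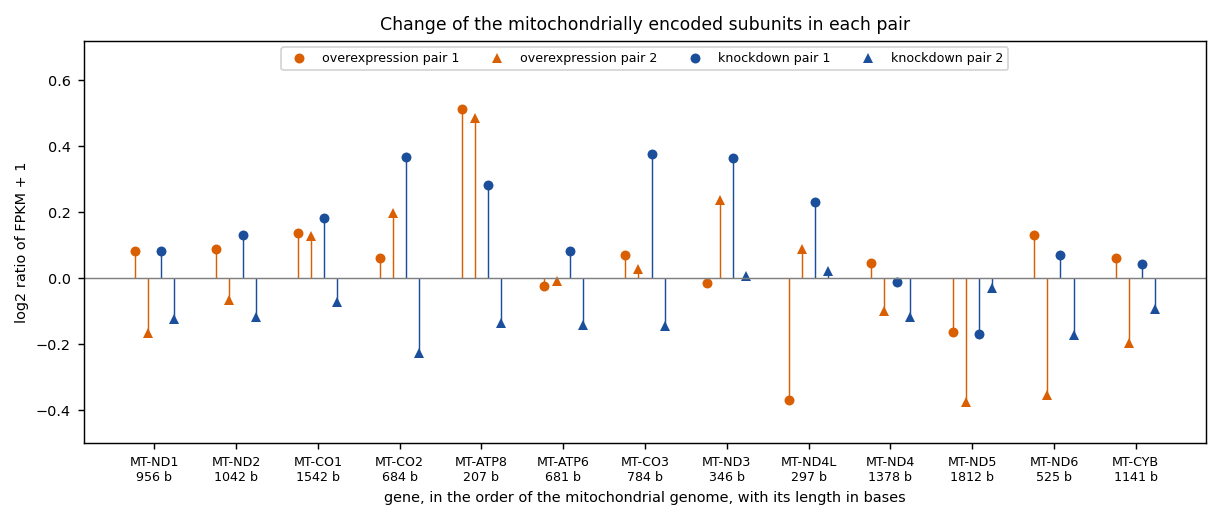
Log2 ratio of FPKM + 1 of the 13 mitochondrially encoded subunits in overexpression pairs (orange) and knockdown pairs (blue), circles for pair 1 and triangles for pair 2, in the order of the genes on the mitochondrial genome with their length in bases. MT-ATP8 lies at 0.51 and 0.49 in the overexpression pairs and MT-ATP6 beside it at -0.02 and -0.01.

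Knockdown of PURPL, which asks whether less of this RNA goes with the opposite picture, gave no common direction in the nuclear members. Their median log2 ratio of ASO-PURPL over ASO-NC was -0.02, with 0.07 in pair 1 and -0.11 in pair 2, beside -0.04, -0.02 and -0.06 over all genes tested. The nuclear median was 0.02 with each ratio centred on the median of all genes and 0.02 with quantile normalization and no replicate block. Its sign thus depended on the scaling. In pair 1 44 of 60 were higher, beside 45.8% of all genes tested, and in pair 2 8 of 60 were, beside 39.3%. The commonest pattern was therefore higher in pair 1 and lower in pair 2, in 38 of 60, beside 26.2% of all genes tested, and 9 of 13 mitochondrial members did likewise. Lower in both pairs were 14 of 60, beside 33.4%, higher in both 6 of 60, beside 19.3%, and lower then higher 2 of 60 (NDUFS1 and UQCR11), beside 19.7%.

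No member was called after knockdown. The limma test called 0 of 73 higher and 0 lower, beside 0.0% of all genes in each direction, with a lowest adjusted p of 0.587 among the members. At an unadjusted p under 0.05, 0 members lay on the higher side, beside 3.54% of all genes tested, and 4 on the lower side, beside 4.64%. These 4 were NDUFS6, NDUFA7, SDHA and COX7B. Only NDUFA7 had both ASO-PURPL libraries below both ASO-NC libraries, beside 13.1% of all genes tested, and only MT-ND4L had both above, beside 8.37%, in both cases among the 73 members.

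NDUFS6, with the library values given above, had knockdown ratios of -0.25 and -0.32 and a mean of -0.28 ± 0.09 (adjusted p = 0.587). Its level in the replicate 1 libraries of both oligonucleotide groups lay far above that in replicate 2, so that the groups overlapped while each pair gave a lower treated value. NDUFA7 had ratios of -0.42 and -0.13, with a mean of -0.28 ± 0.10 (adjusted p = 0.598). SDHA had ratios of -0.26 and -0.23, alike in both pairs, and a mean of -0.25 ± 0.08 (adjusted p = 0.587). COX7B had ratios of -0.14 and -0.49 and a mean of -0.31 ± 0.12 (adjusted p = 0.598), and its lowest value of all 8 libraries was that of ASO-PURPL replicate 2.

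Of the other complex I members given in full, NDUFA1 and NDUFV3 were lower in both knockdown pairs. NDUFA1 had knockdown ratios of -0.10 and -0.27 and a mean of -0.19 ± 0.12 (adjusted p = 0.683), NDUFV3 had -0.08 and -0.01 and -0.04 ± 0.11 (adjusted p = 0.931), and NDUFC2 had 0.01 and -0.07 and -0.03 ± 0.11 (adjusted p = 0.958). NDUFB7 had 0.39 and -0.07 and 0.16 ± 0.15 (adjusted p = 0.777), NDUFV1 had 0.20 and -0.16 and 0.02 ± 0.11 (adjusted p = 0.975), and NDUFS1 had -0.31 and 0.13 and -0.09 ± 0.13 (adjusted p = 0.876). The last 3 and NDUFC2 changed sign between pairs. With quantile normalization and no replicate block the mean of NDUFV3 was 0.0080.

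In complex II, SDHB had knockdown ratios of 0.01 and -0.04 and a mean of -0.01 ± 0.08 (adjusted p = 0.975), and SDHC had 0.28 and -0.01 and 0.13 ± 0.11 (adjusted p = 0.762). In complex III, UQCRQ was higher in both pairs, with ratios of 0.30 and 0.10 and a mean of 0.20 ± 0.12 (adjusted p = 0.651), and CYC1 was lower in both, with -0.07 and -0.27 and -0.17 ± 0.10 (adjusted p = 0.664). UQCRH had 0.23 and -0.15 and 0.04 ± 0.13 (adjusted p = 0.949), UQCR11 had -0.07 and 0.03 and -0.02 ± 0.10 (adjusted p = 0.973), and UQCRFS1 had 0.17 and -0.15 and 0.01 ± 0.13 (adjusted p = 0.991). None of these differences exceeded the spread between pairs by the test.

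In complex IV, 9 of 11 members were higher in pair 1 and lower in pair 2. COX6A1 had ratios of 0.23 and -0.09 and a mean of 0.07 ± 0.12 (adjusted p = 0.894), COX5B had 0.34 and -0.17 and 0.08 ± 0.14 (adjusted p = 0.893), COX8A had 0.14 and -0.04 and 0.05 ± 0.10 (adjusted p = 0.913), and COX4I1 had 0.16 and -0.14 and 0.01 ± 0.12 (adjusted p = 0.987). COX6C lay slightly below its control in both pairs, though at 0.0040 with each ratio centred on the median of all genes, with ratios of -0.02 and -0.05 and a mean of -0.04 ± 0.15 (adjusted p = 0.964). The median of complex IV was 0.16 in pair 1 and -0.08 in pair 2, so that the 2 pairs lay on opposite sides.

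Among the mitochondrial genes, MT-ND3 and MT-ND4L were higher in both knockdown pairs, with ratios of 0.36 and 0.01 and means of 0.19 ± 0.16 (adjusted p = 0.762) for MT-ND3, and of 0.23 and 0.02 and 0.13 ± 0.17 (adjusted p = 0.861) for MT-ND4L. With the trend on length and GC content removed, the knockdown mean of MT-ND4L turned to -0.0995 and that of MT-ATP8 to -0.50. With quantile normalization and no replicate block that of MT-ND4L was -0.0072. MT-ATP8 had 0.28 and -0.14 and 0.07 ± 0.17 (adjusted p = 0.928), MT-CO1 had 0.18 and -0.07 and 0.06 ± 0.15 (adjusted p = 0.939), and MT-ND5 had -0.17 and -0.03 and -0.10 ± 0.12 (adjusted p = 0.839). MT-ND1 had 0.08 and -0.12 and -0.02 ± 0.13 (adjusted p = 0.98), MT-ND6 had 0.07 and -0.17 and -0.05 ± 0.16 (adjusted p = 0.953), and MT-CYB had 0.04 and -0.09 and -0.02 ± 0.12 (adjusted p = 0.97). The mitochondrial median was 0.01, with 0.13 in pair 1 and -0.12 in pair 2.

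The difference between the overexpression and the knockdown ratio was tested as a contrast of the same fit. It called 0 of 73 members, beside 0.02% of all genes tested, with a lowest adjusted p of 0.350. At an unadjusted p under 0.05 the overexpression ratio lay above the knockdown ratio in 11 members, beside 8.52% of all genes tested, and below it in 0, beside 4.47%. The largest differences were those of NDUFS6, 0.63 ± 0.13 (adjusted p = 0.35), and NDUFA1, 0.61 ± 0.17 (adjusted p = 0.35), and COX7B differed by 0.53 ± 0.17 (adjusted p = 0.367). Higher in both overexpression pairs and lower in both knockdown pairs were 9 of 60 nuclear members, beside 12.5% of all genes tested: NDUFA1, NDUFA6, NDUFA7, NDUFB1, NDUFB6, NDUFS6, SDHA, CYC1 and COX7B. A share of 9 in 60 is near that background.

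Genes that work with the chain were read from lists drawn up by function, and none of their genes passed the test in either comparison. Of all genes tested, 32.6% were higher and 31.0% lower in both overexpression pairs, the background for such counts here and below. The 19 nuclear genes of the ATP synthase, among them its inhibitor ATP5IF1 and the coupling factor B gene DMAC2L, had a median of 0.17 after overexpression, with 10 higher and 1 lower in both pairs, and ATP5F1E, the epsilon subunit, had ratios of 0.32 and 0.57 and a mean of 0.44 ± 0.13 (adjusted p = 0.326). ATP5ME, a subunit at the dimer interface, had 0.48 ± 0.13 (adjusted p = 0.324). After knockdown 16 of these 19 were higher in pair 1 and lower in pair 2, beside 26.2% of all genes tested. The 18 assembly factors of complex I had a median of 0.13, with 9 higher and 2 lower in both pairs, and NDUFAF8 had the largest mean, 0.65 ± 0.15 (adjusted p = 0.324). The 34 assembly factors of complexes II to IV had a median of 0.10, 17 of them higher and 4 lower in both pairs, and included SCO2, which delivers copper to complex IV, at 0.42 ± 0.09 (adjusted p = 0.324), and HIGD2A at 0.42 ± 0.10 (adjusted p = 0.324).

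The knockdown gave medians of -0.06 and -0.05 for those assembly lists. NUBPL, which supplies iron-sulphur clusters to complex I, had knockdown ratios of -0.27 and -0.67 and a mean of -0.47 ± 0.18 (adjusted p = 0.609). COX19 had 0.39 ± 0.14 (adjusted p = 0.587) and LYRM7, which handles the Rieske protein, 0.49 ± 0.19 (adjusted p = 0.609). Of 10 isoforms and subunits outside the 73, 4 were tested, with a median of 0.17 after overexpression. COX7A1, an isoform known from heart and skeletal muscle, stood at 144 and 133 FPKM in PCDNA, 169.9 and 188 in OE-PURPL, 229 and 115 in ASO-NC and 294 and 128 in ASO-PURPL, and was higher in all 4 pairs, with a mean of 0.36 ± 0.11 (adjusted p = 0.326) after overexpression and 0.26 ± 0.11 (adjusted p = 0.618) after knockdown.

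The machinery that expresses the mitochondrial genome was not uniformly higher. Median transcript length differed between the lists read here. It was 697 bases for the ATP synthase list, and 920 and 1278.5 bases for the large and small mitochondrial ribosomal subunits. It was 1179.5 bases for mitochondrial transcription and DNA maintenance, 1464 for the citric acid cycle and 1918 for the regulators below. The part of length in the medians of these lists was not tested. The 49 proteins tested of the large mitochondrial ribosomal subunit had an overexpression median of 0.17, with 29 higher and 2 lower in both pairs, and the 30 of the small subunit had 0.06, with 14 higher and 7 lower. MRPL41 had 0.46 ± 0.14 (adjusted p = 0.326) and MRPS27 -0.40 ± 0.15 (adjusted p = 0.355). The 28 genes of mitochondrial transcription and DNA maintenance had a median of -0.04. POLRMT, the mitochondrial RNA polymerase, stood at 13.1 and 12.5 FPKM in PCDNA, 18.0 and 16.3 in OE-PURPL, 19.9 and 20.0 in ASO-NC and 16.6 and 17.7 in ASO-PURPL, with ratios of 0.43 and 0.35 and a mean of 0.39 ± 0.10 (adjusted p = 0.324) after overexpression and -0.21 ± 0.10 (adjusted p = 0.622) after knockdown. LRPPRC, which stabilises mitochondrial messages, stood at 24.4 and 25.7 FPKM in PCDNA, 18.8 and 19.2 in OE-PURPL, 25.3 and 24.9 in ASO-NC and 24.4 and 30.4 in ASO-PURPL, with ratios of -0.36 and -0.40 and a mean of -0.38 ± 0.11 (adjusted p = 0.326). Polymerase and stabilising protein thus had opposite directions in the overexpression pairs.

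Of 13 regulators of mitochondrial biogenesis tested, 2 were higher and 9 lower in both overexpression pairs, beside 32.6% and 31.0% of all genes tested. Their median was -0.11. PPARGC1A, the coactivator PGC-1alpha, stood at 0.30 and 1.16 FPKM in PCDNA, 0.20 and 0.32 in OE-PURPL, 0.88 and 0.36 in ASO-NC and 2.98 and 0.59 in ASO-PURPL, near the limit for testing. Its mean ratio was -0.41 ± 0.30 (adjusted p = 0.566) after overexpression and 0.65 ± 0.30 (adjusted p = 0.622) after knockdown. SIRT3, the mitochondrial deacetylase, stood at 5.99 and 6.51 FPKM in PCDNA, 10.2 and 8.56 in OE-PURPL, 15.0 and 7.39 in ASO-NC and 8.70 and 6.03 in ASO-PURPL, with ratios of 0.68 and 0.35 after overexpression and -0.72 and -0.25 after knockdown and means of 0.51 ± 0.17 (adjusted p = 0.331) and -0.49 ± 0.17 (adjusted p = 0.587). The 18 genes of the citric acid cycle had a median of -0.01, with 5 higher and 8 lower in both pairs, the 19 of electron carriers and ubiquinone synthesis one of 0.02, and the 24 of outer membrane and import one of 0.13. CYCS, cytochrome c itself, had overexpression ratios of -0.03 and 0.28 and a mean of 0.13 ± 0.12 (adjusted p = 0.658). Both mitochondrial ribosomal RNAs were higher in both overexpression pairs, with means of 0.24 ± 0.15 (adjusted p = 0.491) for MT-RNR1 and 0.05 ± 0.13 (adjusted p = 0.899) for MT-RNR2.

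Copies of mitochondrial DNA in the nuclear genome bear on how the mitochondrial members are measured, since they share most of their letters. Identity to the mitochondrial gene over the aligned part ran from 92.4% for MTCYBP18 to 99.2% for MTND1P23. Of 13 such copies, 10 were tested, and 9 of these also averaged 1 FPKM or more over the PCDNA and OE-PURPL libraries, which do not enter the knockdown ratio. Of these 9, chosen so after their values were seen, 7 were lower in both knockdown pairs, beside 33.4% of all genes tested, and 6 had both ASO-PURPL libraries below both ASO-NC libraries, beside 13.1%. Whether some of the 9 lie side by side in the nuclear genome was not examined, so they may not be separate observations. The tenth, MTND6P4, reached the limit for testing only through ASO-NC, at 3.72 and 2.01 FPKM, and is not counted. MTCO1P12 stood at 81.9 and 92.9 FPKM in PCDNA, 93.6 and 103 in OE-PURPL, 112 and 128 in ASO-NC and 95.3 and 103 in ASO-PURPL, with ratios of -0.23 and -0.32 and a mean of -0.27 ± 0.08 (adjusted p = 0.587), while MT-CO1 itself, at 98.7% identity, had 0.18 and -0.07. After overexpression the 10 copies tested had a median of 0.29, with 6 higher and 1 lower in both pairs. None of the copies passed the test, and how reads were divided between a copy and the mitochondrial gene was not given in the sources used here.

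Pseudogenes of the nuclear members were numerous and mostly near 0. The tables name 122 of them for 35 members, and 7 reached a mean of 1 FPKM. SDHAP1 had a mean of 13.3 FPKM beside 37.4 FPKM for SDHA, UQCRFS1P1 had 3.61 beside 19.8 FPKM for UQCRFS1, and NDUFA4P1 had 3.78 beside 27.4 FPKM for NDUFA4. The values of SDHA, UQCRFS1 and NDUFA4 are uncertain to that extent, since reads may have been shared out.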

How the data were processed

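RNA of 8 libraries was sequenced from TriZol extracts with the SMARTER mRNA-Seq kit, per the labels' protocols. The submitters' processing notes list STAR, Cufflinks and hg38, with no versions, and no source used here gives the annotation. Values as deposited are FPKM, a unit inferred from Cufflinks and from library sums of 463588 to 586913. The authors deposited 3 tables of 60635 rows: replicate 1 of each pair in its own table, with no value below 0.01 and a column by the authors of log2 ratios, and replicate 2 of all groups in the third. That deposited log2 equals the log2 ratio of FPKM + 1 to within 0.0015. Absolute depth is unknown, and steps of the low values put the size of 1 fragment in a control at 0.696 to 1.29 times that in the treated library of its table.

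For 1264 rows that repeat a name, only the one of highest mean stayed, and 1 gene with a cell that is no number was left out. Tested were the 14977 genes that averaged 1 FPKM or more in the libraries of a comparison. The log2 ratio of FPKM + 1 of each treated library to the control of its table was fitted in R 4.3.3 with limma 3.58.1 (eBayes with a trend, 2 residual and 3.34 prior degrees of freedom), with both comparisons sharing 1 spread, Benjamini-Hochberg adjustment over all genes and a threshold of 0.05. The pseudocount understates ratios of low genes. The pairing comes from the replicate number, which is also the deposited table, through within-table ratios. The fits were tested on simulated data with independent noise in each library and no difference between replicates. That test does not cover gaps between replicates such as those seen here. Lengths and GC content came from GENCODE 29 (GRCh38) for 13339 tested genes, whose trend was fitted with mgcv 1.9.3 in 1 alternative, and promoters from RefSeq. The other alternatives were pseudocounts of 0.1 and 5, other filters, no trend, separate fits, centring, summed repeated rows, no replicate block with quantile normalization, each pair left out, and TPM.

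The members and the gene lists were chosen with earlier results of these data known. Named members are those past the threshold, the 2 largest mean ratios of equal sign in both pairs for each complex and comparison, catalytic or reference subunits, and the highest and lowest of each complex. For each list the same rule gave 2 genes a comparison, of which some are named, and CYCS, MTCO1P12 and the complex members named only in passing were chosen after their values were seen. The list of ATP synthase genes under older symbols matched none of 19 names. Left unnamed above were, among others, GPD2, POLG2 and MTCO3P12. Knockdown ratios are given for only some of the list genes.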

Additional observations from a re-analysis of the deposited data

How the results depend on the processing

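No respiratory chain member passed the threshold in any comparison under any alternative run, and the lowest adjusted p of the 30 members given in full was 0.226 for overexpression and 0.474 for knockdown. The number of all genes called after overexpression, 4, was 2 with a pseudocount of 5, 0 with each comparison fitted on its own pairs and 1 with the length and GC trend removed, and 0 to 1 with a pair left out. After knockdown the count of 0 was 1 with a pseudocount of 0.1 and 9 without a filter on low values. The difference between the comparisons called 3 genes, 10 without a filter, 1 with the length and GC trend removed and 0 to 0 with a pair left out. The cause of these moves was not tested.

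The median overexpression ratio of the nuclear members was positive under every alternative run, from 0.13 to 0.31 with a pair left out. That of the mitochondrial members, -0.015, ran from -0.015 to 0.061 with a pair left out, and was 0.032 with the length and GC trend removed and -0.020 for the members of at least 500 bases, an alternative added after seeing the data. The nuclear knockdown median ran from -0.11 to 0.07.

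The replicate block mattered for the size of the nuclear overexpression median, 0.24 with it and 0.13 without it (with quantile normalization), and the pairing changed no member's call. Without the block the sign turned for COX6C (-0.079), MT-ND3 (-0.055) and MT-CO1 (-0.044) after overexpression and for NDUFV3 (0.0080), SDHB (0.038), UQCR11 (0.026) and MT-ND4L (-0.0072) after knockdown. Centring on the median of all genes turned the knockdown ratios of NDUFC2 (0.0093), SDHB (0.026), UQCR11 (0.022), COX6C (0.0040), MT-ND1 (0.021) and MT-CYB (0.015). With the length and GC trend removed, NDUFS1 after overexpression was 0.072, and MT-ND4L and MT-ATP8 after knockdown were -0.0995 and -0.50. None of these values is a called change.

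The ends of the ranges below are the ratios of the pairs themselves. With a pair left out the ratio took both signs after overexpression for COX6C (-0.21 to 0.35), MT-CYB (-0.19 to 0.061), MT-ND1 (-0.17 to 0.083), MT-ND3 (-0.014 to 0.24), MT-ND4L (-0.37 to 0.090), MT-ND6 (-0.35 to 0.13) and NDUFS1 (-0.10 to 0.0066). After knockdown it did so for COX4I1 (-0.14 to 0.16), COX5B (-0.17 to 0.34), COX6A1 (-0.091 to 0.23), COX8A (-0.040 to 0.14), MT-ATP8 (-0.14 to 0.28), MT-CO1 (-0.073 to 0.18), MT-CYB (-0.094 to 0.045), MT-ND1 (-0.12 to 0.084), MT-ND6 (-0.17 to 0.070), NDUFB7 (-0.065 to 0.39), NDUFC2 (-0.066 to 0.0055), NDUFS1 (-0.31 to 0.13), NDUFV1 (-0.16 to 0.20), SDHB (-0.037 to 0.010), SDHC (-0.010 to 0.28), UQCR11 (-0.066 to 0.030), UQCRFS1 (-0.15 to 0.17) and UQCRH (-0.15 to 0.23).

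Rescaling FPKM to TPM moved the mean summed levels, by construction, in PCDNA, OE-PURPL, ASO-NC and ASO-PURPL to 10387, 11806, 13843 and 13932 for the nuclear members and to 53013, 52622, 67662 and 70349 for the mitochondrial ones. On that scale the mean mitochondrial sum of OE-PURPL lies slightly below that of PCDNA, and on the FPKM scale above it. By library the mitochondrial share of the summed FPKM was 5.360% and 5.242% in PCDNA and 5.281% and 5.243% in OE-PURPL. Both OE-PURPL libraries thus lay between the PCDNA libraries in TPM. Differences of the size seen here passed the test for no single member, and absolute depth is unknown.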
